A study of Homo sapiens with 11 samples.

Results

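The 8 protein-coding genes ANXA1, LMNB1, OTUD6B, TTPAL, GEMIN5, CMTM6, PRMT3 and YRDC were among those with the largest rises against non-targeting siRNA in all 3 knockdowns of MDA-MB-231 cells. They were picked by name for their levels in knockdown against non-targeting libraries, from a table with values for 8085 genes, of which 3149 have values for all 3 knockdowns. Their differences from the non-targeting libraries are therefore given as a description with no test, and tests are given only for differences between knockdowns. MDA-MB-231 is a human breast cancer line with mesenchymal features, and its total RNA was sequenced after removal of ribosomal RNA. All groups were transfected and harvested at 48 h: siBCL11A (a pool of siRNAs against BCL11A at 100 nM, 3 libraries), siMBNL1 (a pool against MBNL1 at 100 nM, 3 libraries), siB/siM (both pools together at 50 nM each, 3 libraries) and siNS (non-targeting siRNA at 100 nM, 2 libraries). Each knockdown was thus made with 1 pool per target, in 1 line and at 1 time, and the combination carried a lower dose of each pool than the single knockdowns did. The labels do not say whether replicates were separate cultures, so p-values may measure only a technical spread between libraries.

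BCL11A is a zinc finger repressor best known for silencing fetal globin genes in red cell precursors, and MBNL1 is an RNA-binding protein that regulates alternative splicing. The 8 genes belong to no common pathway. ANXA1 and CMTM6 act at membranes, LMNB1 builds the nuclear lamina, GEMIN5 and PRMT3 serve RNA and ribosomal proteins, YRDC modifies transfer RNA, OTUD6B removes ubiquitin and TTPAL carries a lipid-binding fold.

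The 8 genes lie on 7 chromosomes, with LMNB1 and GEMIN5 both on chromosome 5. RefSeq promoter windows (GRCh38.p14, 250 bases before to 50 after the start) were matched for 6 of the 8, with 7 windows because LMNB1 has 2. The upstream parts of 4 windows are shown because they hold every upstream match to the short motifs searched among these genes. Capitals mark the matches on either strand: TGACCA, the core bound by BCL11A, CCAAT, the box bound by NF-Y, CACGTG, the E-box, CCGGAAG, an ETS site, and TATAAA, the TATA box.
YRDC promoter, minus strand, chr1:37808209-37808458: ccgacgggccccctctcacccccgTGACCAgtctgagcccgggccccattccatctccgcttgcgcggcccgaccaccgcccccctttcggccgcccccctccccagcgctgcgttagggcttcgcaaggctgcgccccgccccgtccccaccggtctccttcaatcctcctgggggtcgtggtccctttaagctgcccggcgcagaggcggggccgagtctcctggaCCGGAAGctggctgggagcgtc
LMNB1 promoter, the second of its windows, plus strand, chr5:126776886-126777135: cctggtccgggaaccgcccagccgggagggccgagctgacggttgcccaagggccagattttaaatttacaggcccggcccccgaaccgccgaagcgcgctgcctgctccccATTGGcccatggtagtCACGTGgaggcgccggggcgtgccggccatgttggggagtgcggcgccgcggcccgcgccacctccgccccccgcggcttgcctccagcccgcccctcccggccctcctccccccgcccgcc
ANXA1 promoter, plus strand, chr9:73151615-73151864: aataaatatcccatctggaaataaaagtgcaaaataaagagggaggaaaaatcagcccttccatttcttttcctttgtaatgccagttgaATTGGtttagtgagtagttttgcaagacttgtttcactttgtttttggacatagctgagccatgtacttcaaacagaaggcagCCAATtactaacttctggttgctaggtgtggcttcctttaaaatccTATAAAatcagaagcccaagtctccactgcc
PRMT3 promoter, plus strand, chr11:20387466-20387715: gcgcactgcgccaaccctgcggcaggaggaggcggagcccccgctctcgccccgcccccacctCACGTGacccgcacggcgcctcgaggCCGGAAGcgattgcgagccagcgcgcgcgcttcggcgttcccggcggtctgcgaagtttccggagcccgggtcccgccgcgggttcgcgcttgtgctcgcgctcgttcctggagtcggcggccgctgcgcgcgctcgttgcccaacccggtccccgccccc

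TGACCA was found in 1 member promoter, that of YRDC at position −226, and in 10.7% of 35116 RefSeq promoters of the same 300 bases. A CCAAT box was found in ANXA1 at −160 and −77 and in LMNB1 at −138 (34.6% of all promoters). The E-box was found in LMNB1 at −122 and in PRMT3 at −187 (7.26% of all promoters). CCGGAAG was found in PRMT3 at −161 and in YRDC at −22 and 9 (10.3% of all promoters). TATAAA was found in ANXA1 alone among the 7 windows, at −31 (11.5% of all promoters). No window held TTTCGCG or TTTGGCG, forms of the E2F site (3.19% of all promoters), or TGANTCA, the AP-1 site (7.71%), which says only that these letters are not there. The base composition also ranged widely, from 38.4% G and C upstream of ANXA1 to 76.8% upstream of PRMT3, beside a median of 58% over all promoters. No motif was common to more than 2 of the 6 genes.

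Levels are RPKM, reads scaled by gene length and library size, and differences are of mean log2(RPKM + 1), which understates the change of genes at low levels. The recovered effective library sizes were 20.04 M to 34.9 M reads (M, mega-reads). The lowest was that of siNS replicate 1, while siNS replicate 2 had 29.9 M. MBNL1, the target with values, averaged 27.6 RPKM in siBCL11A, 3.08 in siMBNL1 and 3.58 in siB/siM, against 9.97 in siNS, and the level of BCL11A is not analysed here. VIM, a marker of this mesenchymal line, averaged 1076 RPKM in siBCL11A, 1186 in siMBNL1 and 1073 in siB/siM, against 917 in siNS. KRT18, another marker of the line, averaged 382, 366 and 376 RPKM in these knockdowns, against 308 in siNS. KRT8 has values in siB/siM, at 334 RPKM against 257 in siNS. CD44 and EGFR went the other way. CD44 averaged 156 RPKM in siBCL11A and 158 in siB/siM, against 185 in siNS. EGFR averaged 30.7 and 31.2 RPKM in those 2 groups, against 37.3 in siNS. Summed levels of the immune markers with values (CD14, CSF1R and CD68, 3 of 4) were 27.8 to 31.5 RPKM in siBCL11A, 33.3 to 38.8 in siMBNL1 and 26.7 to 28.3 in siB/siM, against 60.6 to 62.4 in siNS. CD68 made up most of each sum. The sums of the fibroblast markers PDGFRB and COL1A1 (2 of 3) were 0.946 to 1.39, 1.55 to 1.68 and 1.36 to 1.56 RPKM in the same knockdowns, against 4.61 to 5.28 in siNS. ESR1, PGR, ERBB2, CDH1 and EPCAM were looked up as markers low or absent in this line. ERBB2 averaged 13.9 RPKM in siMBNL1 and 18.8 in siB/siM, against 16.4 in siNS. EPCAM averaged 4.94 RPKM in siBCL11A and 6.28 in siB/siM, against 8.93 in siNS. ESR1, PGR and CDH1 have no values, nor do the remaining markers PTPRC and DCN and the endothelial markers PECAM1, VWF and CDH5. All libraries are of 1 cell line, and bulk RNA does not show which cells the reads of these markers came from. The part of these markers in the rises below was not tested.

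ANXA1 encodes annexin A1, a calcium-dependent phospholipid-binding protein that limits inflammation through formyl peptide receptors, and it was by far the most abundant of the 8. It was at 462, 475 and 489 RPKM in siBCL11A, 515, 500.3 and 489.8 RPKM in siMBNL1, and 532, 502 and 504 RPKM in siB/siM, against 129 and 134 RPKM in siNS. The lowest knockdown library was 3.45-fold above the higher siNS library. By mean level the order was siB/siM, siMBNL1, siBCL11A and siNS, and the libraries of siB/siM and siMBNL1 overlapped. The log2 differences from siNS were 1.84 ± 0.06 in siBCL11A, 1.92 ± 0.06 in siMBNL1 and 1.95 ± 0.06 in siB/siM (estimate ± SE of the limma fit).

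LMNB1 encodes lamin B1, a filament protein that lines the inner nuclear membrane and is lost in senescent cells. Its levels were 39.5, 40.9 and 37.7 RPKM in siBCL11A, 51.3, 55.1 and 53.1 in siMBNL1, and 49.7, 47.3 and 47.8 in siB/siM, against 12.8 and 14 in siNS. The 4 groups did not overlap at all, and their order from the top was siMBNL1, siB/siM, siBCL11A and siNS. The fold of mean RPKM over siNS was 2.93 in siBCL11A, 3.97 in siMBNL1 and 3.60 in siB/siM. Reads behind LMNB1 could be recovered as whole numbers, from 3607 to 6066 per knockdown library, against 874 and 1426 in the siNS libraries.

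YRDC encodes the enzyme that makes threonylcarbamoyl-AMP, the first step of the t6A modification of transfer RNAs that read codons starting with A. It stood at 27.9, 30.2 and 28.5 RPKM in siBCL11A, 30.9, 30.5 and 32.8 in siMBNL1, and 34.0, 32.3 and 33.0 in siB/siM, against 12 and 10.9 in siNS. All siBCL11A libraries were below the other 2 knockdowns, while siMBNL1 and siB/siM overlapped. YRDC had the smallest single difference from siNS among the 8, 1.26 ± 0.06 on the log2 scale in siBCL11A, beside 1.38 ± 0.06 in siMBNL1 and 1.45 ± 0.06 in siB/siM.

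GEMIN5 is the subunit of the SMN complex that recognises small nuclear RNAs before Sm proteins are loaded on them. The gene was at 31.6, 34.4 and 32.2 RPKM in siBCL11A, 29.8, 31.0 and 28.9 in siMBNL1, and 34.4, 33.7 and 33.6 in siB/siM, against 10.8 and 11.6 in siNS. The siMBNL1 libraries were the lowest of the knockdowns and overlapped neither of the others, while siB/siM and siBCL11A overlapped. Differences from siNS were 1.47 ± 0.06, 1.34 ± 0.06 and 1.52 ± 0.06 in siBCL11A, siMBNL1 and siB/siM.

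PRMT3 is an arginine methyltransferase of the cytosol whose main substrate is the ribosomal protein RPS2. It had 26.8, 23.5 and 24.9 RPKM in siBCL11A, 22.1, 26.1 and 21.7 in siMBNL1, and 28.2, 26.1 and 25.1 in siB/siM, against 9.27 and 8.44 in siNS. The 3 knockdowns overlapped pairwise, with siB/siM on top by mean, then siBCL11A, siMBNL1 and, apart from them, siNS. The log2 differences from siNS were 1.40 ± 0.09 in siBCL11A, 1.30 ± 0.09 in siMBNL1 and 1.48 ± 0.09 in siB/siM.

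CMTM6 is a membrane protein that keeps the checkpoint ligand PD-L1 on the cell surface and away from lysosomes. Levels were 29.7, 27.1 and 27.4 RPKM in siBCL11A, 26.3, 31.5 and 24.6 in siMBNL1, and 28.2, 26.9 and 24.4 in siB/siM, against 10.3 and 10.2 in siNS. The knockdowns overlapped throughout, and siMBNL1 had the widest spread of any gene of the 8 in a knockdown, with a coefficient of variation of 13% over its 3 libraries. CMTM6 was the only one of the 8 with its lowest knockdown mean in siB/siM, at 26.5 ± 1.90 RPKM (SD, n = 3).

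OTUD6B is an OTU-family deubiquitinase linked to proteasome assembly and protein synthesis. The gene was at 10.5, 10.7 and 12.7 RPKM in siBCL11A, 10.1, 9.66 and 9.38 in siMBNL1, and 12, 10.9 and 10.7 in siB/siM, against 2.92 and 2.08 in siNS. The siMBNL1 libraries were just below the other knockdowns, which overlapped each other. Its fold of mean RPKM was the largest of the 8 in siBCL11A (4.52) and in siB/siM (4.48), and reached 3.89 in siMBNL1. The siNS value rests on 193 and 205 reads, beside 799 to 1386 per knockdown library, and the 2 siNS libraries differed more for OTUD6B than for any other of the 8, with a coefficient of variation of 23.8%.

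TTPAL encodes a relative of the alpha-tocopherol transfer protein with a CRAL-TRIO lipid-binding domain. It was at 8.97, 9.26 and 8.98 RPKM in siBCL11A, 7.16, 6.68 and 6.41 in siMBNL1, and 8.39, 8.58 and 8.93 in siB/siM, against 2.11 and 1.98 in siNS. No library of siMBNL1 reached either of the other knockdowns, and the siBCL11A libraries were just above those of siB/siM. The folds of mean RPKM were 4.44 in siBCL11A, 3.31 in siMBNL1 and 4.23 in siB/siM. At these low levels the log2 scale gives smaller steps, with 1.73 ± 0.06, 1.35 ± 0.06 and 1.66 ± 0.06 for the 3 knockdowns.

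**Figure D1:**
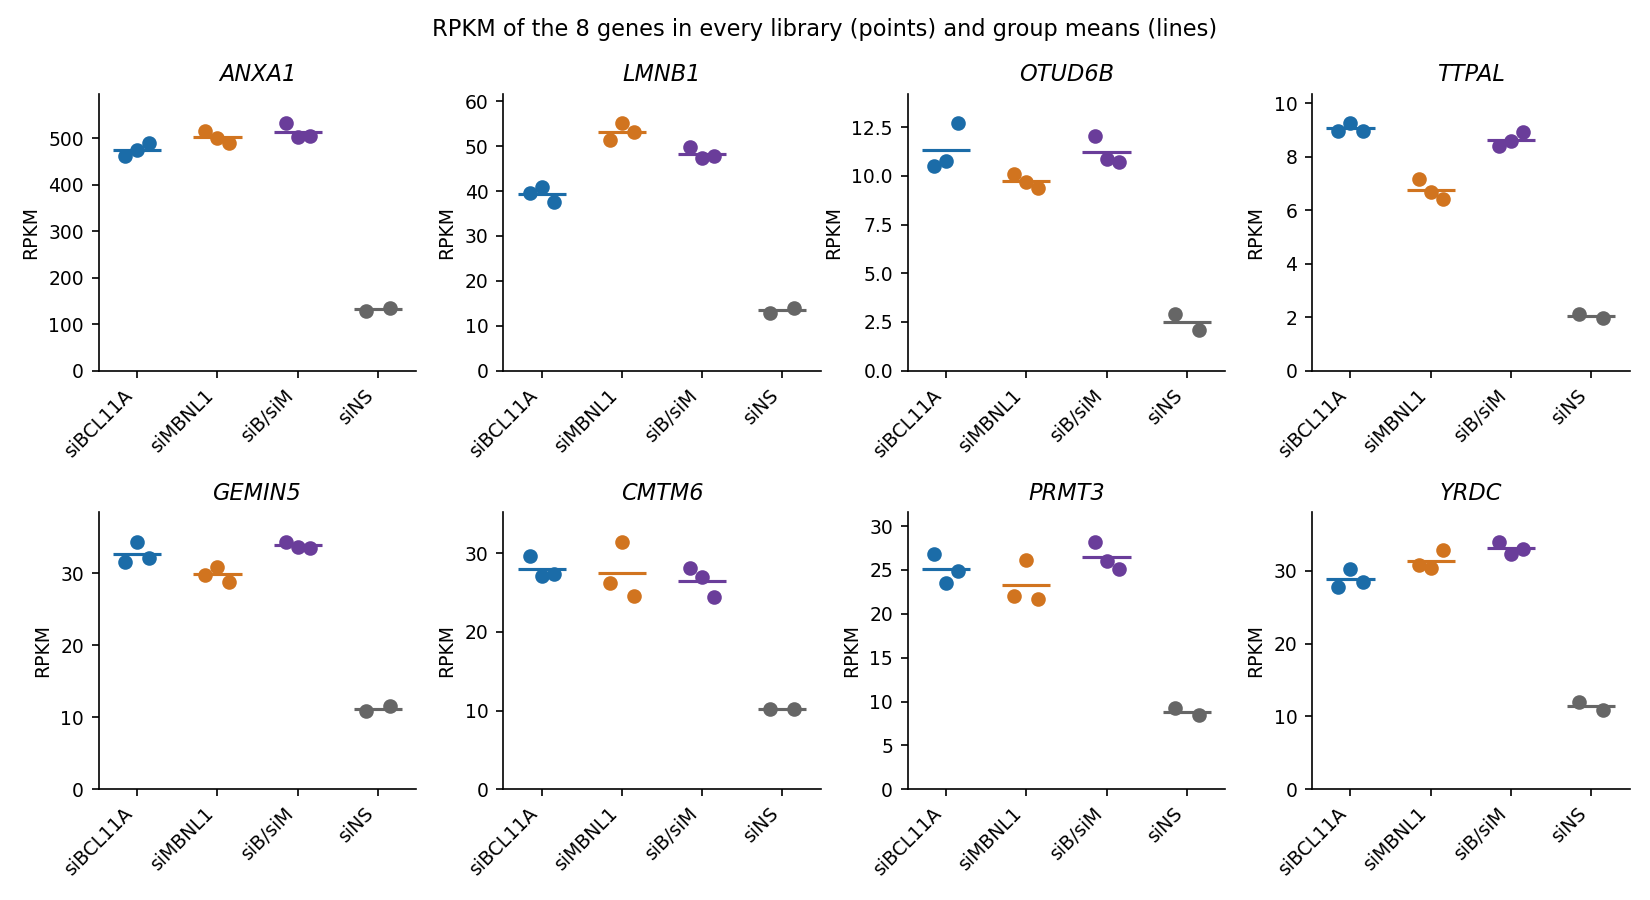
RPKM of each of the 8 genes (vertical axes, from 0) in the libraries of siBCL11A, siMBNL1, siB/siM (3 points each) and siNS (2 points), with lines at the group means. Every knockdown library is above both siNS libraries, and the knockdowns stand apart from each other for LMNB1 and, with siMBNL1 below, for TTPAL.

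Over the 8 genes the median difference from siNS was 1.48 on the log2 scale in siBCL11A, 1.36 in siMBNL1 and 1.59 in siB/siM, beside −0.22, −0.25 and 0.24 over all genes with values in each comparison. Knockdown and siNS libraries did not overlap for 8 of 8 genes in each comparison, where such a separation with the knockdown higher was found for 44.9% of genes in siBCL11A, 46.8% in siMBNL1 and 58.5% in siB/siM. Genes called higher by at least 1 on the log2 scale made up 1.75%, 2% and 2.07% of those 3 comparisons. Nothing is read from these counts for the 8, which were chosen on the same values, and the 3 comparisons share the same 2 siNS libraries. With no other control group, a rise common to all 3 knockdowns cannot be told apart from a low level in those 2 libraries.

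**Figure D2:**
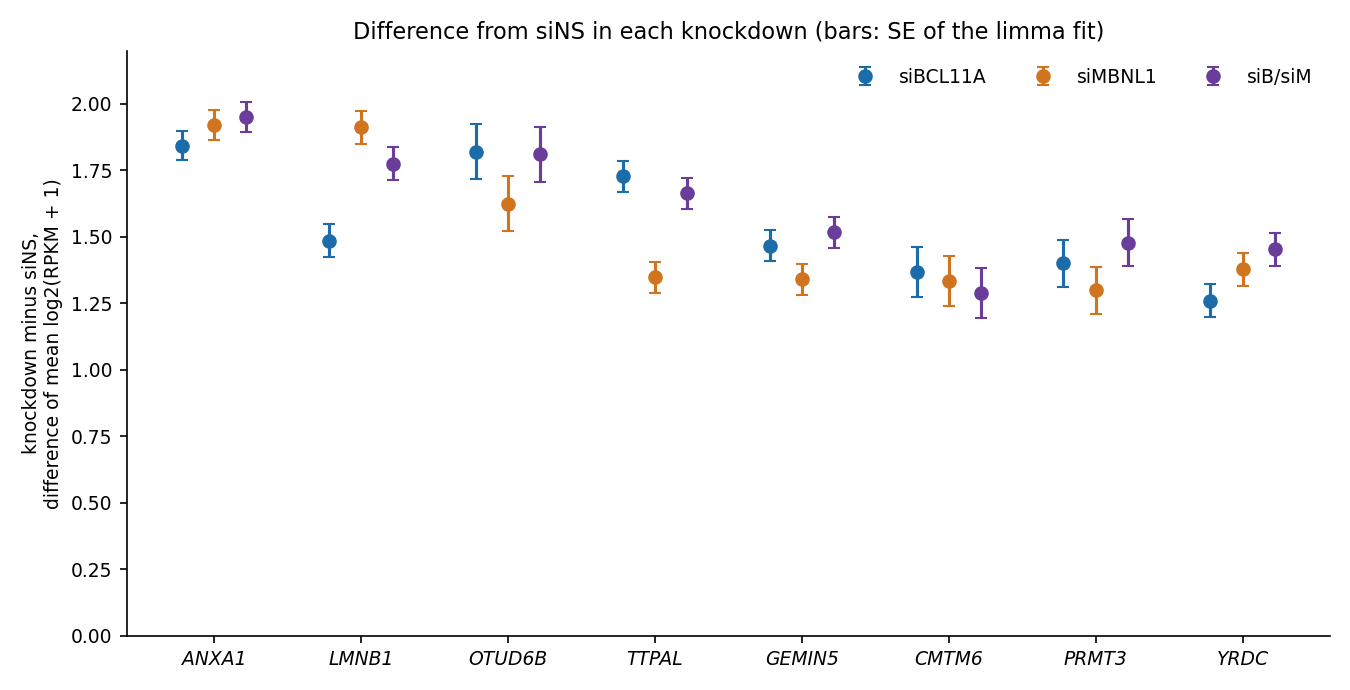
Difference from siNS of each of the 8 genes (vertical axis, difference of mean log2(RPKM + 1)) in siBCL11A, siMBNL1 and siB/siM, with bars for the standard error of the limma fit. The values span 1.26 (YRDC in siBCL11A) to 1.95 (ANXA1 in siB/siM).

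When the 3149 genes were ranked by the smallest of their 3 differences from siNS, ANXA1 was at rank 1 (1.84), OTUD6B at rank 4 (1.62), LMNB1 at rank 6 (1.49) and the other 5 from rank 9 to rank 13. The genes interspersed among them were CENPQ at rank 2 (1.68), a kinetochore protein, CDK2 at 3 (1.67), the cyclin-dependent kinase of S phase, CDK6 at 5 (1.53), a kinase of the G1 phase, RPS27L at 7 (1.43), a ribosomal protein paralog, and WEE1 at 8 (1.38), the kinase that inhibits mitotic entry. Just inside the lower end stood YRDC (1.26), and just outside it SNRPB2, a U2 snRNP protein (1.19), ITGB1, integrin beta 1 (1.18), and TXLNA, taxilin alpha (1.16). In all, 45 genes had a smallest difference of at least 1. The profile of the 8 over the 9 knockdown libraries was most closely followed by CDK6, with a root-mean-square difference of 0.14 log2 units to their mean, then CENPQ (0.16) and WEE1 (0.18). Of the 8 themselves, GEMIN5 was closest to that mean (0.13) and ANXA1 furthest from it (0.35).

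**Figure D3:**
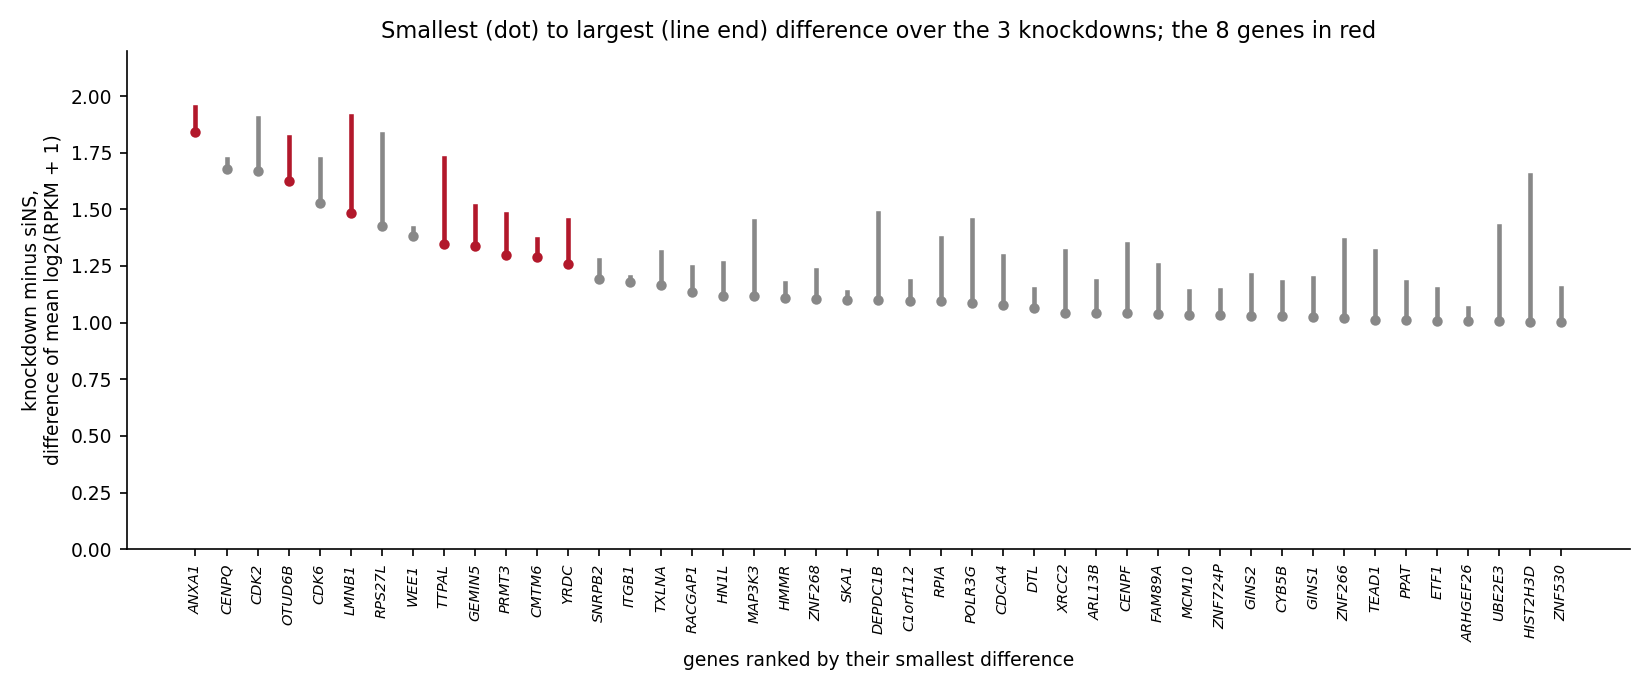
The 45 genes with a difference from siNS of at least 1 in all 3 knockdowns, ordered by their smallest difference (dot) with a line up to the largest (vertical axis, difference of mean log2(RPKM + 1)). The 8 genes are in red and hold ranks 1, 4, 6 and 9 to 13, and LMNB1 and TTPAL have the longest red lines.

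Between knockdowns, LMNB1 and TTPAL differed and the other 6 genes passed no test. The tests were those of limma over all genes with values in both groups, with Benjamini-Hochberg adjustment over the 23227 genes behind the authors' own adjustment. Being high in all 3 knockdowns leaves a gene less room to differ between them. The median absolute difference of the 8 was 0.16 in siB/siM minus siMBNL1, 0.12 in siBCL11A minus siMBNL1 and 0.08 in siB/siM minus siBCL11A, beside 0.12, 0.14 and 0.08 over all genes in these comparisons.

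LMNB1 was lower in siBCL11A than in siMBNL1, at 39.4 ± 1.62 against 53.2 ± 1.89 RPKM (SD, n = 3 each), a log2 difference of −0.43 ± 0.05 (limma, adjusted p = 0.000684). TTPAL went the other way and was higher in siBCL11A, at 9.07 ± 0.162 against 6.75 ± 0.381 RPKM (0.38 ± 0.05, limma, adjusted p = 0.0011). These 2 of 8 genes were called where 18.9% of 3376 genes were called in either direction. Libraries of siBCL11A and siMBNL1 did not overlap for 6 of 8 genes, beside 44.5% of all genes in either direction. The 95% interval of the difference, not adjusted for the number of genes, was −0.15 to 0.22 for CMTM6, −0.18 to 0.03 for ANXA1 and −0.01 to 0.40 for OTUD6B, so differences of those sizes remain possible.

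TTPAL was also higher in siB/siM than in siMBNL1, at 8.63 ± 0.272 against 6.75 ± 0.381 RPKM (SD, n = 3 each; 0.31 ± 0.05, limma, adjusted p = 0.00764). It was the only one of the 8 called in this comparison, where 11.6% of 3927 genes were called. For GEMIN5 the difference was 0.18 ± 0.05, which did not pass (limma, adjusted p = 0.168), although the libraries did not overlap. Separation without overlap was seen for 4 of 8 genes, beside 38.7% of all genes. The 95% interval was −0.08 to 0.14 for ANXA1 and −0.26 to −0.02 for LMNB1 (limma, adjusted p = 0.539).

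None of the 8 was called between siB/siM and siBCL11A, where 92 of 4511 genes (2.04%) were called by limma and 3 of the 8 (ANXA1, LMNB1 and YRDC) had an unadjusted p under 0.05. Over all these genes 1173 (26.0%) had such a p. LMNB1 came closest, at 48.3 ± 1.26 RPKM in siB/siM against 39.4 ± 1.62 in siBCL11A (0.29 ± 0.05, limma, adjusted p = 0.0509), and over 16 alternatives its adjusted p was 0.00988 to 0.182. It was called in 3 of them: a minimum mean of 5 RPKM, limma with trend and robust moderation, and adjustment over the genes with values alone. YRDC differed by 0.19 ± 0.06 (limma, adjusted p = 0.261), and for TTPAL the 95% interval was −0.18 to 0.05. Groups did not overlap for 4 of 8 genes, beside 34.1% of all genes. With the replicate number as a block and only these groups fitted, 39 genes were called in place of 92, and again none of the 8. The count of 92 became 9, 8 and 77 without siBCL11A replicates 1, 2 and 3. It became 12, 15 and 8 without siB/siM replicates 1, 2 and 3, while none of the 8 was called in any of these.

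**Figure D4:**
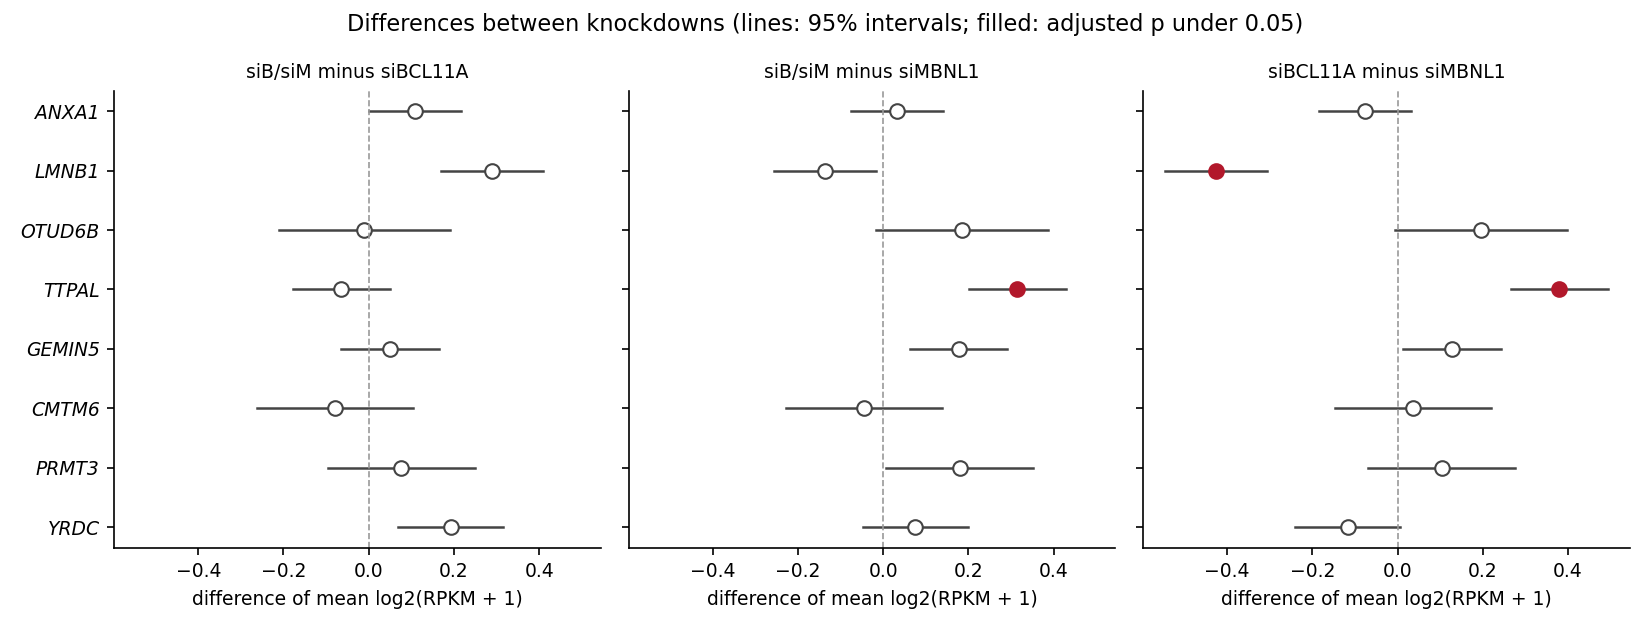
Differences between knockdowns for the 8 genes (horizontal axes, difference of mean log2(RPKM + 1), first-named group minus the second) with 95% intervals, for siB/siM minus siBCL11A, siB/siM minus siMBNL1 and siBCL11A minus siMBNL1. Filled red points passed an adjusted p of 0.05: TTPAL in both comparisons with siMBNL1, and LMNB1 in siBCL11A minus siMBNL1 at −0.43.

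The relatives and partners of the 8 were examined in lists that leave the 8 out and were tested against siNS by limma with the same adjustment. Of all genes with values, 42.3% were called higher and 46.9% lower in siBCL11A, 45.2% and 49.1% in siMBNL1, and 51.3% and 35.5% in siB/siM. The table holds genes that had already passed the authors' own test against siNS on these same libraries. A call or a small p-value for a listed gene is therefore no separate evidence of a change.

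Annexins and formyl peptide receptors did not move one way. In siBCL11A 4 rose and 6 fell of 12 with values, in siMBNL1 3 rose and 4 fell of 8, and in siB/siM 3 rose and 7 fell of 11. These counts include S100A11, a binding partner of ANXA1 that is no annexin; without it they were 4 and 6 of 11, 3 and 4 of 7, and 3 and 6 of 10 in siBCL11A, siMBNL1 and siB/siM. FPR1, a receptor that annexin A1 peptides can engage, fell most, at 4.21 RPKM in siBCL11A against 16.8 in siNS (−1.78 ± 0.09, limma, adjusted p = 8.57e-08), with −1.52 in siMBNL1 and −1.76 in siB/siM. ANXA5, the phosphatidylserine-binding annexin, rose by 0.67 in siBCL11A, 0.46 in siMBNL1 and 0.60 in siB/siM. ANXA10 fell by 0.95 in siBCL11A and by 1.25 in siB/siM. ANXA8L2 fell by 0.73, 0.54 and 0.61 in siBCL11A, siMBNL1 and siB/siM, though its reads may be shared with near-identical copies. No annexin in the list had a difference above the 0.67 of ANXA5.

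The list of the nuclear lamina around LMNB1 was mostly higher among its genes with values. It also holds genes that are not of the lamina itself, such as NUP153 of the nuclear pore. In siBCL11A 8 rose and 1 fell of 10 with values, in siMBNL1 5 rose and 1 fell of 7, and in siB/siM 10 rose and 2 fell of 14. TMPO, which encodes the lamina-associated LAP2 proteins, rose most, by 1.00 ± 0.07 in siBCL11A, 1.06 ± 0.07 in siMBNL1 and 1.19 ± 0.07 in siB/siM (limma, adjusted p = 6.2e-07, 6.8e-07 and 1.73e-07). LMNB2, the other B-type lamin, rose by 0.58 in siBCL11A and 0.78 in siB/siM, while its difference of 0.26 in siMBNL1 did not pass (limma, adjusted p = 0.129). LMNA, which encodes the A-type lamins, has values in siB/siM, where it rose by 0.43. The nuclear envelope linker SYNE2 rose by 0.62, 0.79 and 0.79, and the nuclear pore gene NUP153 by 0.66, 0.48 and 0.60, in siBCL11A, siMBNL1 and siB/siM. The called falls were SUN2, by 0.36 in siBCL11A and 0.28 in siB/siM, and ZMPSTE24, by 0.46 in siMBNL1 and 0.30 in siB/siM. The list medians were 0.42, 0.48 and 0.40, beside −0.22, −0.25 and 0.24 over all genes.

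The list of the SMN complex, the Sm proteins it loads and their assembly and import partners was also mostly higher, with 10 up and 2 down of 12 in siBCL11A, 9 up and 1 down of 10 in siMBNL1, and 11 up and 1 down of 13 in siB/siM. Without the partners CLNS1A, WDR77 and SNUPN, 8 were up and 1 down of 9, 7 were up of 7, and 9 were up of 10 in siBCL11A, siMBNL1 and siB/siM. GEMIN4 rose most among the subunits, by 0.86 ± 0.07, 0.54 ± 0.07 and 0.79 ± 0.07 in siBCL11A, siMBNL1 and siB/siM. DDX20, the helicase also called GEMIN3, rose by 0.32 in siBCL11A and 0.30 in siB/siM, GEMIN6 by 0.37 and 0.36 in the same groups, and GEMIN2 by 0.40 in siB/siM. STRAP rose by 0.25 in siBCL11A and 0.26 in siMBNL1, and its 0.21 in siB/siM did not pass. GEMIN7 fell by 0.37 in siBCL11A, where it has values. The Sm protein SNRPD1 rose by 0.55, 0.50 and 0.65, and WDR77, the partner of PRMT5 in methylating Sm proteins, by 0.48, 0.54 and 0.62. SNUPN, the import adaptor snurportin, fell by 0.31, 0.59 and 0.29. Without siNS replicate 1, 6 of these genes were called in siBCL11A and 6 in siMBNL1, all higher except 1 in siMBNL1.

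The list of arginine methyltransferases and RPS2 had few values: 3 of 3 rose in siBCL11A, 2 rose and 1 fell of 3 in siMBNL1, and 3 of 4 rose in siB/siM. Of the methyltransferases alone, 2 of 2 rose in siBCL11A, 2 rose and 1 fell of 3 in siMBNL1, and 2 of 3 rose in siB/siM. PRMT6, a nuclear enzyme, rose by 0.54, 0.51 and 0.61 and PRMT5 by 0.21, 0.27 and 0.33 in siBCL11A, siMBNL1 and siB/siM. RPS2, the substrate of PRMT3, rose by 0.27 in siBCL11A and 0.38 in siB/siM. CARM1 fell by 0.28 in siMBNL1. Under quantile normalization, or without siNS replicate 1, 1 of 3 was called in siBCL11A, and under quantile normalization 1 of 4 in siB/siM.

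OTU deubiquitinases were split, with 3 higher and 2 lower of 6 in siBCL11A, 3 and 1 of 5 in siMBNL1, and 4 and 1 of 5 in siB/siM. OTUD4 rose by 0.64, 1.01 and 0.71 and OTUD3 by 0.34, 0.51 and 0.54 in siBCL11A, siMBNL1 and siB/siM, YOD1 rose by 0.37 in siMBNL1 and 0.30 in siB/siM, and OTUB2 fell by 0.45 in siBCL11A and 0.41 in siB/siM. Without siNS replicate 1, 3 were called in siBCL11A in place of 5. The relatives of CMTM6 had 2 higher and 2 lower of 4 in siBCL11A and in siB/siM, and 2 of 2 higher in siMBNL1. With the PD-1 ligands CD274 and PDCD1LG2, which the list also holds, the counts were 2 higher and 2 lower of 5 in siBCL11A, 3 of 3 higher in siMBNL1, and 3 higher and 2 lower of 5 in siB/siM. CMTM7, which lies next to CMTM6, rose by 0.60, 0.85 and 0.63, and CMTM3 by 0.47, 0.79 and 0.67. CMTM4, which in human cells can also protect PD-L1, fell by 0.65 in siBCL11A and 0.40 in siB/siM, and CKLF fell by 0.41 and 0.42 there. CD274, which encodes PD-L1, rose by 0.32 ± 0.09 in siMBNL1 and 0.35 ± 0.09 in siB/siM (limma, adjusted p = 0.0338 and 0.0184). Over 14 alternatives its adjusted p was 0.00683 to 0.201 in siMBNL1 and 0.00531 to 0.118 in siB/siM (limma). The call was lost in siMBNL1 with a pseudocount of 0.1, without siMBNL1 replicate 1 or 2 and without either siNS library, and in siB/siM without siB/siM replicate 1 or 3 and without either siNS library.

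The t6A list had 3 higher and 1 lower of 4 in siBCL11A and in siMBNL1, and 4 higher and 1 lower of 5 in siB/siM. OSGEPL1, the mitochondrial t6A enzyme, rose by 0.38, 0.54 and 0.56 and TPRKB, a KEOPS subunit, by 0.53, 0.35 and 0.45 in siBCL11A, siMBNL1 and siB/siM, while LAGE3, another KEOPS subunit, fell by 0.45, 0.31 and 0.31. C14orf142, a small KEOPS component, rose by 0.38 in siMBNL1. Fewer were called without 1 library: 2 without siNS replicate 1 in each knockdown, 1 in siMBNL1 without siNS replicate 2, 2 in siMBNL1 without its replicate 1 or 2, and 3 in siB/siM without its replicate 2 or 3. Under quantile normalization 3 were called in siB/siM in place of 5. None of the CRAL-TRIO relatives of TTPAL was called higher in a knockdown. SEC14L2 fell by 0.57, 0.41 and 0.52 in siBCL11A, siMBNL1 and siB/siM, and SEC14L1 and MOSPD2 fell in siMBNL1 by 0.37 and 0.43, of which 1 gene of the 3 was called without siNS replicate 1. GDAP2 had 0.21 in siB/siM and did not pass (limma, adjusted p = 0.0667), but it was called higher in 3 of 14 alternatives: quantile normalization, without siB/siM replicate 2, and adjustment over the genes with values.

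Over the 8 lists, 48 genes were called in siBCL11A, 40 in siMBNL1 and 53 in siB/siM, and leaving out 1 library ended the call of 15 of them in each knockdown. Of the genes named here these were OSGEPL1, OTUD3, GEMIN6, GEMIN7, STRAP, SNUPN, PRMT5 and RPS2 in siBCL11A. In siMBNL1 they were OSGEPL1, TPRKB, LAGE3, C14orf142, STRAP, CLNS1A, CARM1, CD274, SEC14L1 and MOSPD2. In siB/siM they were GEMIN2, GEMIN6, SNUPN, LAGE3, CD274, SUN2 and ZMPSTE24. FPR1, ANXA5, ANXA8L2, TMPO, SYNE2, NUP153, GEMIN4, SNRPD1, WDR77, PRMT6, OTUD4, CMTM3, CMTM7 and SEC14L2 were called in all 3 knockdowns whichever library was left out.

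**Figure D5:**
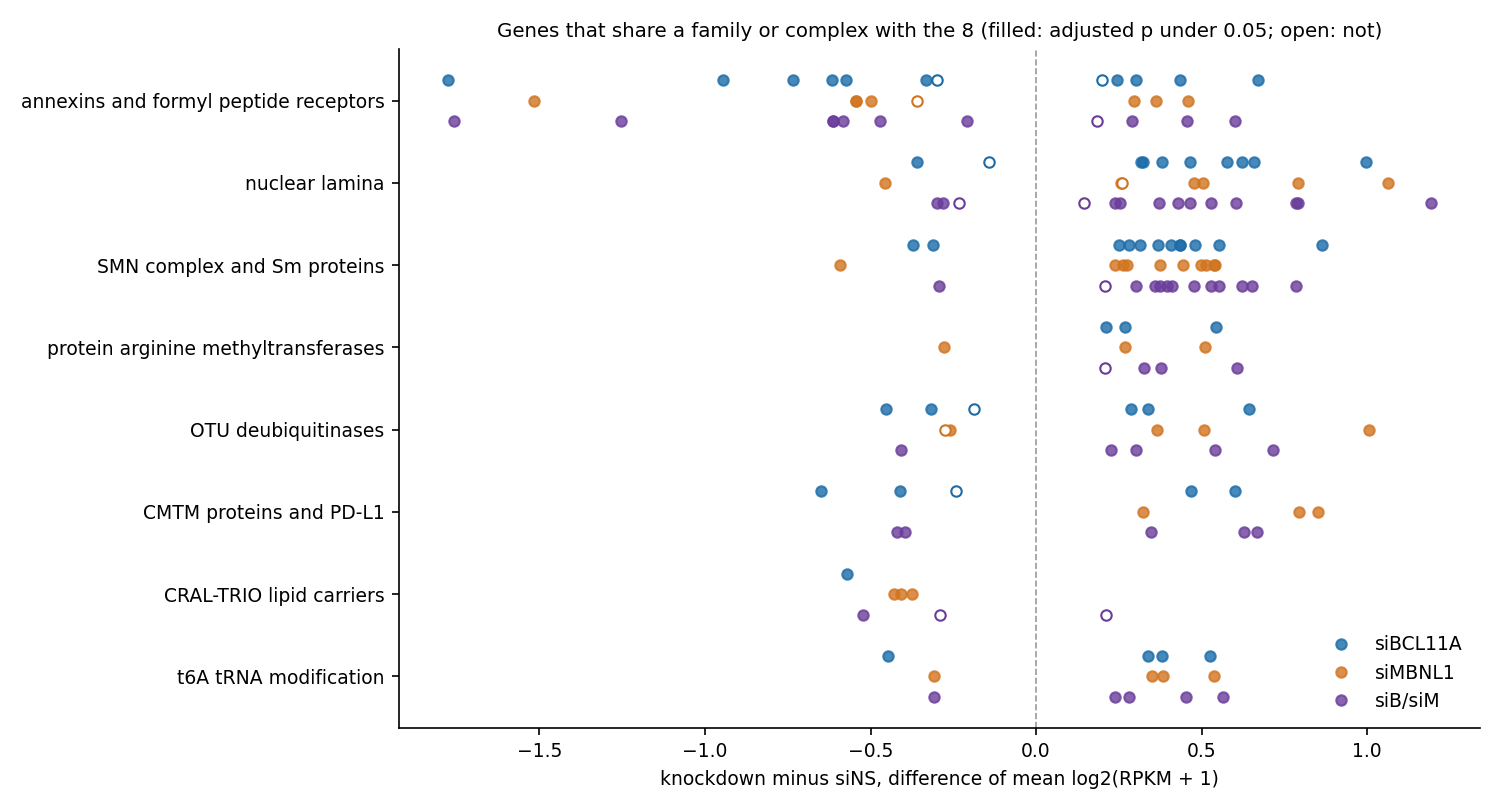
Differences from siNS (horizontal axis, difference of mean log2(RPKM + 1)) of genes in the same family or complex as the 8, which are left out, by list and for siBCL11A, siMBNL1 and siB/siM. Filled points passed an adjusted p of 0.05 in limma and open points did not; lamina and SMN genes are mostly right of 0, and FPR1 is furthest left at −1.78 in siBCL11A.

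Genes near the 8 on the chromosome went both ways. The nearest gene with a value on each side gives 16 neighbours, of which 8 are the next coding gene. The others have coding genes without values in between, up to 13 for ADAM19 and GEMIN5. By the same limma calls 6 of 15 were higher and 8 lower in siBCL11A, beside 42.3% and 46.9% of all genes. In siMBNL1 4 of 9 were higher and 5 of 9 lower, beside 45.2% and 49.1%. In siB/siM 6 of 16 were higher and 7 of 16 lower, beside 51.3% and 35.5%. One, C9orf40 near ANXA1, reached 1 on the log2 scale, at 1.03 in siB/siM. The next gene after TTPAL, SERINC3, differed by −0.31, −0.29 and −0.33, and CNOT8 next to GEMIN5 by −0.47, −0.88 and −0.55. C1orf122, next to YRDC, differed by 0.40, 0.31 and 0.76 in siBCL11A, siMBNL1 and siB/siM.

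All 8 genes appear in the authors' deposited list of genes higher after siBCL11A, from rank 2 by fold (OTUD6B) to rank 46 (YRDC). That list rests on the same siBCL11A and siNS libraries whose levels the 8 were picked for. Their presence in it is therefore no separate evidence of a rise. None of the 8 appears in the authors' deposited lists of changed cassette exons, with 107 entries after siBCL11A, 110 after siMBNL1 and 146 after the combination. These lists are short beside the 8085 genes with values, and the share of all genes in them was not counted. Nothing on the splicing of the 8 is read from this.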

How the data were processed

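Libraries were grouped by their titles. The 8 genes and the lists of their relatives were chosen with earlier results of these data known. The authors deposited RPKM values per library in 3 blocks, 1 per knockdown against siNS, on hg19 per the submitters' processing notes. The blocks list 5360 (siBCL11A), 4690 (siMBNL1) and 6700 (siB/siM) genes whose adjusted p-value in the authors' deposited table is below 0.05, and the authors also gave a log2 fold change and, in a separate list, a ratio of mean RPKM. The deposited exon lists give inclusion as a fraction, used here only for membership. The aligner and counting program were not given in the sources used here.

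Effective library sizes were recovered from steps of the RPKM values. Of 500 genes tried, 44.2% gave whole reads in every library within 0.05 reads, so no count test was run; 5 of the 8 genes did (LMNB1, OTUD6B, GEMIN5, CMTM6 and YRDC). Values were fitted as log2(RPKM + 1) with limma 3.58.1 in R 4.3.3, in a cell-means model of the 4 groups over all 11 libraries, for genes with a mean of at least 1 RPKM in a group. All 8085 genes passed this filter, and a gene was fitted on the groups in which it has values; the 8 have values in all. P-values were Benjamini-Hochberg adjusted over 23227 genes, the number behind the authors' adjustment, and called below 0.05. The fit was tested on simulated data. Pairing by replicate number was checked through the deviations from group means: for siB/siM and siBCL11A equal numbers correlated across genes with r of 0.33, 0.19 and 0.18, so the fit with a replicate block is given beside that comparison, although the labels state no pairing. Genes named were all 8, up to 4 of each list with the largest difference from siNS, SMN subunits, lamins, CD274 and the called falls of the lamina list. Also named were the genes ranked among or just below the 8, the 3 closest profiles and some chromosome neighbours. Promoter sequences and gene order are from RefSeq (GRCh38.p14). Alternatives changed the pseudocount, filter, scaling, moderation, groups fitted, block, number of genes adjusted over and libraries left out.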

Additional observations from a re-analysis of the deposited data

How the results depend on the processing

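With a pseudocount of 0.1 the median difference of the 8 genes from siNS was 1.56 in siMBNL1 and 1.72 in siB/siM, and under quantile normalization it was 1.46 in siMBNL1. Genes called between siB/siM and siBCL11A numbered 47 with a pseudocount of 0.1, 45 under median centring, 34 under quantile normalization, 165 with trend and robust moderation, 456 when adjusted over the genes with values, and 8 to 77 without 1 library. The same adjustment gave 993 genes between siB/siM and siMBNL1 and 1150 between siBCL11A and siMBNL1. Between siB/siM and siMBNL1, 300 were called with only those groups fitted and 262 to 398 without 1 library. Of the 8 genes, 1 (LMNB1) was called between siB/siM and siBCL11A with a minimum of 5 RPKM, with trend and robust moderation or when adjusted over the genes with values, and 2 (TTPAL and GEMIN5) between siB/siM and siMBNL1 under the last. LMNB1 in siBCL11A minus siMBNL1 and TTPAL in both comparisons with siMBNL1 passed under all 15 alternatives, with TTPAL in siB/siM minus siMBNL1 at an adjusted p of up to 0.0468 (limma). Under quantile normalization the uncalled difference of ANXA1 became 0 in siB/siM minus siBCL11A and changed sign to −0.023 in siB/siM minus siMBNL1. Other uncalled differences near 0 changed sign without 1 library: OTUD6B in siB/siM minus siBCL11A (−0.059 to 0.069), and CMTM6 in siB/siM minus siMBNL1 (−0.12 to 0.055) and in siBCL11A minus siMBNL1 (−0.037 to 0.13). A replicate block over all libraries gave 64 genes between siB/siM and siBCL11A, with only those groups 39 (a fit chosen after seeing the data), and changed no call of the 8. In the other comparisons at least 1 pair of equal numbers had a negative r. For replicate 3, r was 0.18 between siB/siM and siMBNL1 and 0.24 between siBCL11A and siMBNL1. These values do not decide whether libraries of equal number were paired. The block gave 417 genes between siB/siM and siMBNL1 and 610 between siBCL11A and siMBNL1. A minimum of 5 RPKM left 4 annexin list genes called in siMBNL1, and 2 CMTM list genes in siBCL11A and 3 in siB/siM, because fewer genes were tested. The 2 siNS libraries limit the precision of every difference from siNS, and 193 and 205 reads in them that of OTUD6B.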
